A study of Marchantia polymorpha with 18 samples.

Results

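Unwounded plants of the liverwort Marchantia polymorpha that carry a mutation in the jasmonate receptor gene MpCOI1 were compared with unwounded plants of the wild-type male accession Tak-1. The comparison uses 6 of the 18 RNA-seq libraries of the series: 3 of mock-treated Mpcoi1 and 3 of mock-treated Tak-1. They were chosen by their genotype and treatment labels, and the comparison itself was picked with earlier results of these data known. Both groups grew alike on agar (1%, half-strength Gamborg B5) for 3 weeks, and apical pieces of thallus without gemma cups were frozen. A replicate is a pool of 6 to 8 plants. The mock treatment is labelled 2 h, while the protocol gives 90 min for freezing after wounding. The sources used here state neither the kind of lesion in Mpcoi1 nor how many independent lines stand behind it. The other 12 libraries are wounded Mpcoi1, mock and wounded Mpdes6fad5 (a double mutant named for the fatty acid desaturase genes MpDES6 and MpFAD5), and wounded Tak-1, with 3 libraries each. They enter below as separate readings of the same genes.

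MpCOI1 encodes an F-box protein that is a receptor for jasmonates, the oxylipin hormones of wounding and defence. When the hormone is bound, the receptor marks JAZ repressors for degradation, which frees MYC-type bHLH transcription factors from JAZ, the adaptor NINJA and the co-repressor TOPLESS. The ligand in Marchantia is dinor-OPDA, made from polyunsaturated fatty acids by lipoxygenases, allene oxide synthase and allene oxide cyclase. The question here is how Mpcoi1 plants differ from Tak-1 before any wound is made. Whether a difference comes from the lost receptor or from something else in the mutant line was not tested.

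The mock Mpcoi1 libraries held 23465428 to 26303510 reads in genes and the mock Tak-1 libraries 19666739 to 24539270. With no read in a library, a gene's level there was at most 0.113 to 0.125 CPM (reads scaled to library size) in Mpcoi1 or 0.120 to 0.155 CPM in Tak-1, counting error only. Pearson correlations over genes were 0.997 among the Mpcoi1 libraries, 0.994 among the Tak-1 libraries and 0.986 to 0.991 between the groups. Tak-1 replicate 2 lay further from its 2 mates, with a chi-square per degree of freedom of 14.9 and 11.99, than those mates lay from each other (7.27). The male V chromosome was expressed in both genotypes. Of its 207 listed genes 37 were tested. Of these 1 was higher (2.7%, against 2.1% of all tested genes) and 1 lower (2.7%, against 4.56%). The higher gene, MpVg00220, had 11.4, 12.4 and 12.5 CPM in the Mpcoi1 libraries, against 5.07, 5.90 and 4.34 CPM in the Tak-1 libraries (log2 1.11 ± 0.14, adjusted p = 6.87e-05). The 1 lower gene, MpVg00730, had 87.9, 87.0 and 89.0 CPM in the Mpcoi1 libraries, against 103, 101 and 100.03 CPM in the Tak-1 libraries (log2 -0.20 ± 0.05, adjusted p = 0.0152), a call that was lost without Mpcoi1 replicate 2 (adjusted p = 0.0692) or Tak-1 replicate 1 (adjusted p = 0.0620). Marker genes of oil body cells and of the male germline, 3 and 2 tested, gave no call in either direction with limma or voom. At an unadjusted p under 0.05 there were 0 and 1 of them, where 2944 of all 13220 tested genes were. Only 1 and 0 of them had a mean of at least 5 CPM. With 6.66% of all tested genes called, so few weak markers cannot show whether these cells differed.

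In all, 881 of 13220 tested genes (6.66%) differed between mock Mpcoi1 and mock Tak-1. More were lower in Mpcoi1 than higher, with 603 lower (4.56% of the genes tested) and 278 higher (2.1%). Most differences were small: the median difference was -0.52 among the lower genes and 0.43 among the higher ones, in log2 units of CPM + 1, and -0.000936 over all tested genes. A difference of at least 2-fold was reached by 104 lower genes (0.787%) and 32 higher ones (0.242%), and 18 lower and 5 higher genes passed 4-fold. A gene was called with limma at a Benjamini-Hochberg adjusted p under 0.05, and the differences below are log2(CPM + 1) with their standard error, n = 3 libraries per group. In 871 of the 881 called genes all 3 libraries of one genotype lay above all 3 of the other, as they did in 3931 of all tested genes (29.7%). Unless stated, each gene named as changed below had such separate groups. The gene families read below are mostly sets of genes with a symbol, and 227 of the 2516 tested genes with a symbol were called. That is a larger share than the 6.66% of all tested genes, so the all-gene shares printed beside each family are a low background. The total moved with single libraries: it was 1401 without Tak-1 replicate 2, and 546, 363 and 409 without Mpcoi1 replicates 1, 2 and 3, and 419 and 413 without Tak-1 replicates 1 and 3. With 1 library left out the 2-fold counts were 89 to 116 lower and 28 to 37 higher genes. They depend on the constant of 1 CPM: with 0.1 CPM they were 169 lower and 58 higher, and with 5 CPM 35 lower and 12 higher.

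**Figure D1:**
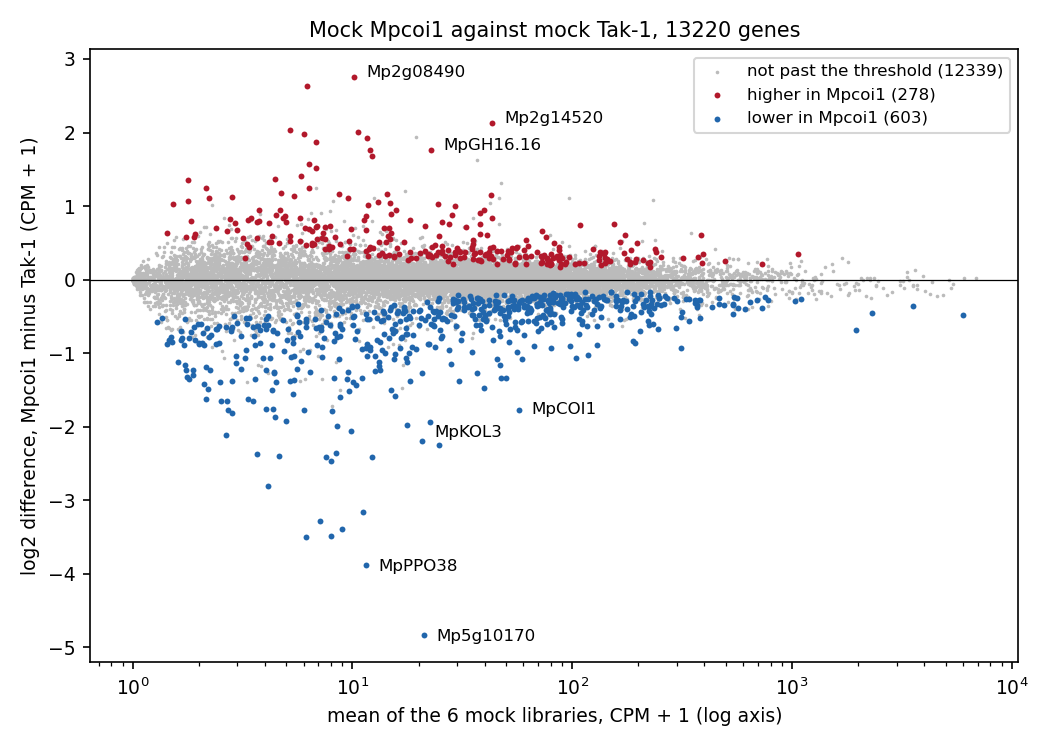
Each point is 1 of 13220 tested genes, with the mean CPM + 1 of the 6 mock libraries on a log axis against the log2 difference of mock Mpcoi1 minus mock Tak-1. The 603 lower genes reach further from 0 than the 278 higher ones, down to -4.82 for Mp5g10170 and up to 2.75 for Mp2g08490.

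The receptor gene was read first. MpCOI1 (Mp2g26590) had 27.0, 23.6 and 24.7 CPM in the Mpcoi1 libraries, against 84.1, 90.9 and 87.9 CPM in the Tak-1 libraries (log2 -1.77 ± 0.08, adjusted p = 2.66e-10). All Mpcoi1 libraries lay far below all Tak-1 libraries, and the Mpcoi1 mean was 28.6% of the Tak-1 mean, with the transcript still present in every Mpcoi1 library. Mock Mpdes6fad5 had 79.9, 80.4 and 78.7 CPM, close to Tak-1. The tested gene next to it in identifier order, Mp2g26580, to which no symbol is assigned, had 0, 0.0406 and 0.0417 CPM in the Mpcoi1 libraries, against 5.27, 7.82 and 5.71 CPM in the Tak-1 libraries (log2 -2.81 ± 0.16, adjusted p = 4.48e-09). Mock Mpdes6fad5 had 5.29, 6.70 and 6.97 CPM, and Mpcoi1 lay below it by a similar amount (log2 -2.82 ± 0.16, adjusted p = 1.10e-09). On the other side, Mp2g26600 had 60.4, 61.7 and 55.4 CPM in Mpcoi1 and 65.0, 63.7 and 60.2 CPM in Tak-1 (log2 -0.09 ± 0.06, adjusted p = 0.421) and did not pass the test, nor did the genes from Mp2g26540 to Mp2g26570.

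Downstream of the receptor, the repressor was the component that moved. MpJAZ (Mp6g06230), the only JAZ gene in the table's symbols, had 16.17, 17.1 and 18.7 CPM in the Mpcoi1 libraries, against 23.9, 31.0 and 27.9 CPM in the Tak-1 libraries (log2 -0.64 ± 0.09, adjusted p = 2.42e-04), with every Mpcoi1 library below every Tak-1 library. Mock Mpdes6fad5 stood at 17.5, 19.95 and 18.8 CPM. MpNINJA (Mp1g04410), the adaptor between JAZ and the co-repressor, had 109, 109 and 104 CPM in Mpcoi1 and 97.7, 115 and 95.2 CPM in Tak-1 (log2 0.07 ± 0.08, adjusted p = 0.675). MpTPL (Mp7g17410), the TOPLESS co-repressor, had 114, 117 and 115 CPM in Mpcoi1 and 108, 128 and 116 CPM in Tak-1 (log2 -0.02 ± 0.07, adjusted p = 0.903), and the libraries of both genotypes overlapped for both genes. Of the 4 genes of this group, which includes the mutated MpCOI1 itself, 2 were lower and 2 did not pass, where 4.56% of all tested genes were lower.

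Among transcription factors the bHLH family, which holds the MYC factors, had the most calls. No gene carried a MYC symbol, so MYC was not read by name. Of 38 tested bHLH genes 5 were lower (13.2%, against 4.56% of all tested genes) and 2 higher (5.26%, against 2.1%). When any 1 of the 6 libraries was left out, 2 to 5 were lower and 0 to 3 higher. MpBHLH3 (Mp2g00910) had 4.34, 3.25 and 3.29 CPM in the Mpcoi1 libraries, against 10.9, 13.04 and 8.50 CPM in the Tak-1 libraries (log2 -1.34 ± 0.22, adjusted p = 8.77e-04). Mock Mpdes6fad5 had 2.98, 3.92 and 3.48 CPM, as low as Mpcoi1. MpBHLH29 (Mp2g07150) had 57.2, 48.0 and 55.9 CPM in the Mpcoi1 libraries, against 82.5, 75.3 and 84.9 CPM in the Tak-1 libraries (log2 -0.59 ± 0.09, adjusted p = 6.93e-04), and here mock Mpdes6fad5 stayed at 97.1, 82.3 and 87.3 CPM. MpBHLH4 (Mp2g00930) had 0.264, 0.122 and 0.0834 CPM in Mpcoi1 and 0.724, 11.9 and 1.02 CPM in Tak-1, with Tak-1 replicate 2 far above its mates. Its adjusted p of 0.043 went to 0.0836, 0.129 and 0.119 without Mpcoi1 replicates 1, 2 and 3. Without Tak-1 replicate 2 the difference was -0.69, the groups stayed apart and the call was kept (adjusted p = 0.00428). MpBHLH2 (Mp2g00890) (log2 -0.08 ± 0.09, adjusted p = 0.644) and MpBHLH51 (Mp8g06230) (log2 -0.11 ± 0.19, adjusted p = 0.784) did not pass. None of the 13 WRKY, 19 NAC and GRAS and 21 C2H2 zinc finger genes passed in either direction with limma, and none did with voom. At an unadjusted p under 0.05 there were 5, 3 and 4 of them, where 2944 of all 13220 tested genes were. With any 1 library left out, and in the other settings, at most 1 gene of each family passed in a direction. In 44 MYB genes 2 were lower, and in 19 AP2/ERF genes 1 was lower, against 4.56% of all tested genes.

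Among the enzymes that make and remove the hormone, calls went in both directions. Lipoxygenases add oxygen to polyunsaturated fatty acids, the entry step. Of 15 tested, 2 were lower (13.3%, against 4.56% of all tested genes), 1 was higher (6.67%, against 2.1%) and 12 did not pass, with a median of 0.022. MpLOX4 (Mp5g21680) had 7.03, 7.55 and 5.79 CPM in the Mpcoi1 libraries, against 19.1, 22.5 and 25.6 CPM in the Tak-1 libraries (log2 -1.58 ± 0.23, adjusted p = 3.81e-04). MpLOX2 (Mp2g23380), one of the more strongly expressed of the family, had 181, 123 and 162 CPM in the Mpcoi1 libraries, against 247, 252 and 249.8 CPM in the Tak-1 libraries (log2 -0.70 ± 0.11, adjusted p = 7.39e-04). MpLOX9 (Mp2g20300) went the other way, with 13.8, 11.98 and 14.3 CPM in the Mpcoi1 libraries, against 6.10, 9.03 and 6.59 CPM in the Tak-1 libraries (log2 0.81 ± 0.15, adjusted p = 0.00267). Each of the 3 kept these groups apart, and all 3 calls held in every setting tried. In mock Mpdes6fad5 MpLOX4 was as low as in Mpcoi1, with 7.44, 4.52 and 3.86 CPM, while MpLOX9 stayed at the Tak-1 level, with 5.17, 5.45 and 6.87 CPM. Mock Mpcoi1 exceeded mock Mpdes6fad5 for MpLOX9 by 1.08 ± 0.15 (adjusted p = 2.66e-05), a comparison in which 17% of all tested genes were higher in Mpcoi1 and 15.8% lower. MpLOX1 (Mp2g00660) spread widely, with 7.33, 11.5 and 5.29 CPM in Mpcoi1 and 28.4, 23.9 and 4.96 CPM in Tak-1 (log2 -0.91 ± 0.68, adjusted p = 0.462), and Tak-1 replicate 3 was the lowest of the 6 libraries.

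The CYP74 family holds allene oxide synthases and hydroperoxide lyases. Of 2 tested CYP74 genes 1 was lower, as was 1 of 4 genes of hormone conjugation and oxidation. Over all tested genes 4.56% were lower. MpCYP74N2 (Mp5g16260) had 245, 224 and 221 CPM in the Mpcoi1 libraries, against 266, 319.7 and 289 CPM in the Tak-1 libraries (log2 -0.34 ± 0.07, adjusted p = 0.00923), a call that was lost without Mpcoi1 replicate 2 (-0.32, adjusted p = 0.0515) or replicate 3 (-0.31, adjusted p = 0.0541). MpCYP74N1 (Mp3g21350) had 33.6, 35.9 and 34.9 CPM in Mpcoi1 and 42.4, 40.5 and 42.2 CPM in Tak-1 and did not pass (log2 -0.25 ± 0.09, adjusted p = 0.0973). MpGH3A (Mp6g07600), of the family that joins hormones to amino acids, had 40.7, 41.9 and 39.9 CPM in Mpcoi1 and 44.7, 74.8 and 57.4 CPM in Tak-1 (log2 -0.49 ± 0.13, adjusted p = 0.0328). The Mpcoi1 values were tight and the Tak-1 values spread, with replicate 2 highest; without 1 library, other than Tak-1 replicate 1, the adjusted p was 0.0821 to 0.104. MpCYP94-like (Mp2g10330), of the cytochrome P450 family that oxidises jasmonates in flowering plants, had 1.70, 1.42 and 1.25 CPM in Mpcoi1 and 1.97, 3.17 and 2.08 CPM in Tak-1 and missed the threshold (log2 -0.46 ± 0.14, adjusted p = 0.0529). MpCYP94L1 (Mp5g04140) had a difference of 0.12 ± 0.11 (adjusted p = 0.575). The desaturase genes named in the double mutant were not lower in Mpcoi1: MpDES6 (Mp6g17330) had 79.7, 87.2 and 83.9 CPM in Mpcoi1 and 59.9, 73.4 and 72.0 CPM in Tak-1 (log2 0.29 ± 0.11, adjusted p = 0.136). MpFAD5 (Mp3g10660) had 546, 603 and 562 CPM in Mpcoi1 and 423, 482 and 495 CPM in Tak-1 (log2 0.29 ± 0.09, adjusted p = 0.0598), both short of the threshold. Of 19 tested desaturase and elongase genes 2 were higher (10.5%, against 2.1% of all tested genes) and 0 lower. They were MpFAD13 (log2 0.34, limma adjusted p = 0.0230) and MpFAD14 (log2 0.45, limma adjusted p = 0.0414). With 1 library left out, 0 to 1 of the 19 were higher.

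**Figure D2:**
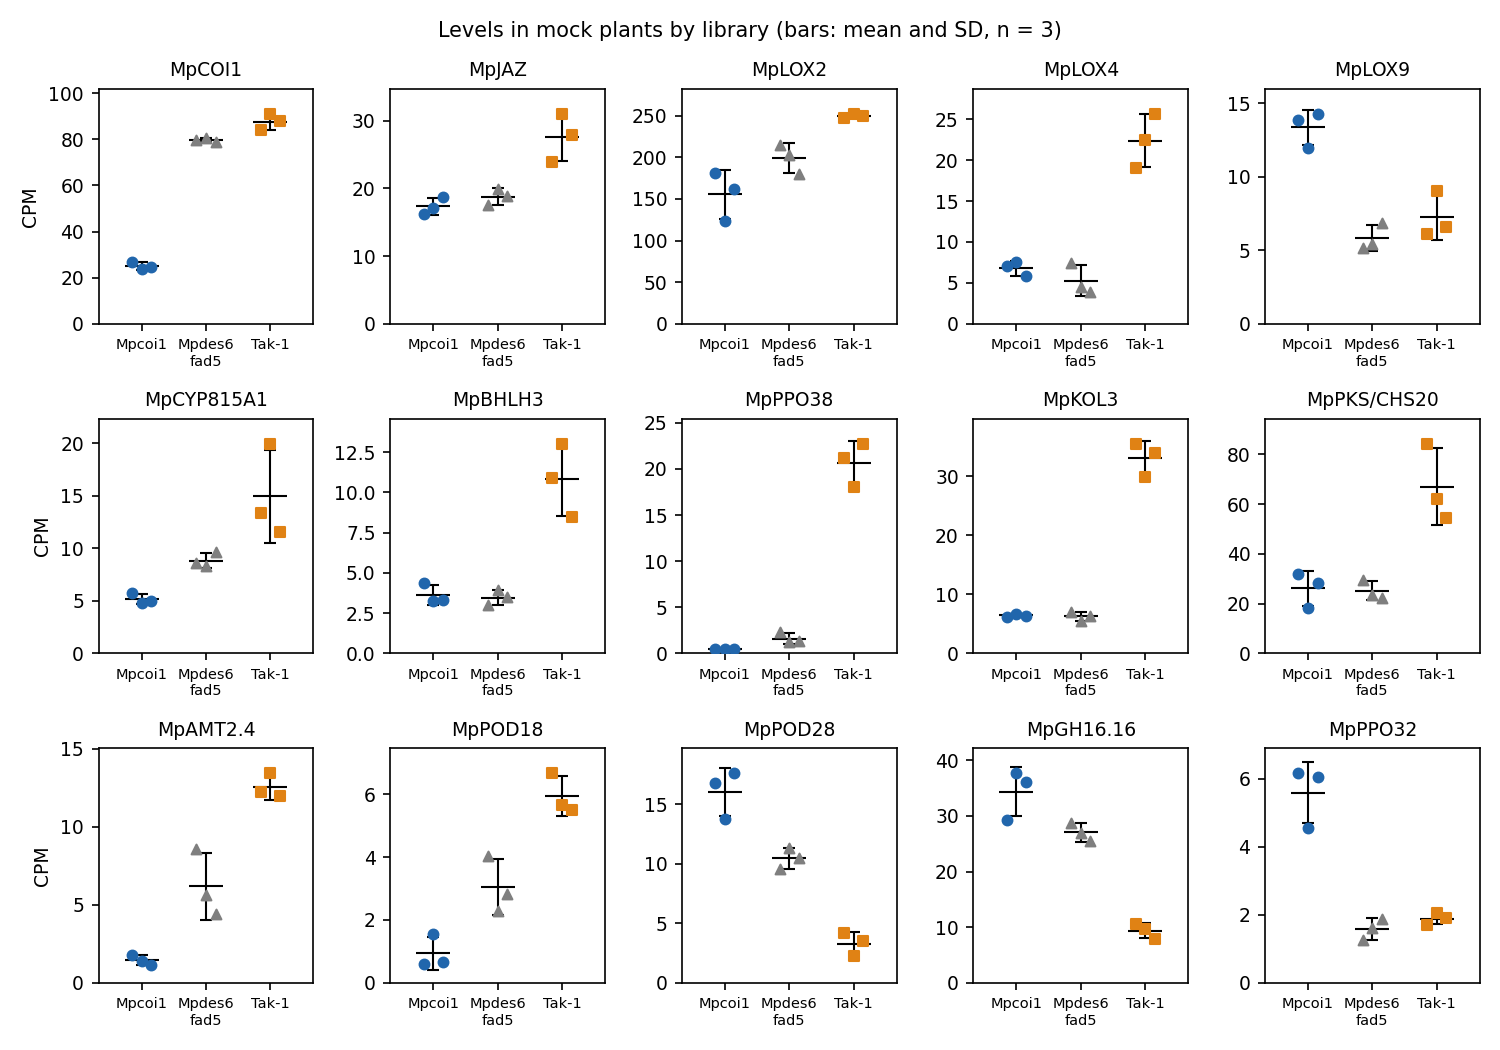
CPM of 15 genes in each mock library of Mpcoi1, Mpdes6fad5 and Tak-1, with each panel's axis starting at 0 and bars for the mean and SD of 3 libraries. MpCOI1 and MpAMT2.4 are lowest in Mpcoi1, MpLOX4, MpBHLH3, MpKOL3 and MpPKS/CHS20 are about as low in Mpdes6fad5 as in Mpcoi1, and MpLOX9 and MpPPO32 are highest in Mpcoi1.

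The largest fall of a gene with a symbol was in the polyphenol oxidases, copper enzymes that oxidise phenols to quinones. MpPPO38 (Mp6g17770) had 0.453, 0.447 and 0.5003 CPM in the Mpcoi1 libraries, against 21.2, 18.1 and 22.7 CPM in the Tak-1 libraries (log2 -3.88 ± 0.16, adjusted p = 9.97e-11), so that its Mpcoi1 mean was 2.26% of the Tak-1 mean. MpPPO40 (Mp6g17740) had 1.28, 1.67 and 1.29 CPM in the Mpcoi1 libraries, against 10.96, 11.5 and 12.9 CPM in the Tak-1 libraries (log2 -2.41 ± 0.14, adjusted p = 5.81e-09). MpPPO39 (Mp6g17750), a weak gene between them, had 0, 0.284 and 0.125 CPM in the Mpcoi1 libraries, against 1.29, 2.69 and 2.30 CPM in the Tak-1 libraries (log2 -1.42 ± 0.19, adjusted p = 1.64e-04). These genes lie side by side and may share reads, since the counting of reads that match several genes is not stated. Mock Mpdes6fad5 was low for all 3 as well, with 2.27, 1.18 and 1.37 CPM for MpPPO38, 1.70, 1.71 and 1.04 CPM for MpPPO40 and 0.189, 0.249 and 0.235 CPM for MpPPO39. On another chromosome MpPPO32 (Mp3g24050) was higher, with 6.16, 4.55 and 6.05 CPM in the Mpcoi1 libraries, against 1.71, 2.05 and 1.90 CPM in the Tak-1 libraries (log2 1.18 ± 0.22, adjusted p = 0.00354). Mock Mpdes6fad5 had 1.25, 1.60 and 1.88 CPM. Of 38 tested polyphenol oxidase genes 4 were lower (10.5%, against 4.56% of all tested genes) and 1 was higher (2.63%, against 2.1%). With any 1 library left out, 3 to 4 were lower and 1 was higher. The higher count depended on the fit: 5 were higher and 4 lower with voom, 10 and 6 with only the compared groups in the fit, 4 and 4 with the replicate block, and 0 and 1 of the 24 genes with a mean of at least 5 CPM.

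Among enzymes of phenylpropanoid and flavonoid synthesis the genes that passed were all lower. Of 76 tested, 13 were lower (17.1%, against 4.56% of all tested genes), none was higher and 63 did not pass, with a median of -0.16 against -0.000936 over all tested genes. Leaving out any 1 library gave 8 to 16 lower and 0 higher, voom gave 12 lower and 0 higher, and at an unadjusted p under 0.05 there were 30 lower and 0 higher. Of all 13220 tested genes 2944 reached that unadjusted p, both directions together. A limma fit of the compared groups alone gave 17 lower and 1 higher. MpPKS/CHS20 (Mp7g14890), a polyketide synthase of the chalcone synthase type that builds the flavonoid skeleton, had 31.96, 18.2 and 28.2 CPM in the Mpcoi1 libraries, against 84.3, 62.2 and 54.4 CPM in the Tak-1 libraries (log2 -1.34 ± 0.18, adjusted p = 1.74e-04). MpPKS/CHS15 (Mp4g14200), of the same type, had 34.1, 22.5 and 27.97 CPM in the Mpcoi1 libraries, against 75.0, 58.3 and 57.9 CPM in the Tak-1 libraries (log2 -1.16 ± 0.15, adjusted p = 7.42e-05). MpPAL-like2 (Mp4g14160), named for phenylalanine ammonia-lyase, the first enzyme of the route, had 0.604, 0.690 and 1.33 CPM in the Mpcoi1 libraries, against 3.57, 3.61 and 2.79 CPM in the Tak-1 libraries (log2 -1.22 ± 0.19, adjusted p = 7.44e-04). In each of these genes the highest Mpcoi1 library lay well below the lowest Tak-1 library. Mock Mpdes6fad5 gave 29.4, 23.6 and 22.3 CPM for MpPKS/CHS20 and 32.9, 31.1 and 24.96 CPM for MpPKS/CHS15, inside or near the Mpcoi1 range. Dirigent proteins, which steer the coupling of phenolic radicals into lignans, had 6 of 44 lower (13.6%, against 4.56% of all tested genes) and a median of -0.20, and with 1 library left out 3 to 5 were lower. None was higher in the limma fit of all 18 libraries or with voom, 2 were at an unadjusted p under 0.05, and a limma fit of the compared groups alone gave 1 higher and 10 lower. MpDIR37 (Mp5g16880) had 12.1, 10.1 and 10.05 CPM in the Mpcoi1 libraries, against 20.1, 16.7 and 16.95 CPM in the Tak-1 libraries (log2 -0.69 ± 0.14, adjusted p = 0.0052). MpDIR18 (Mp6g12760), near the limit of what was tested, had 0.416, 0.528 and 0.459 CPM in the Mpcoi1 libraries, against 1.4997, 1.40 and 2.35 CPM in the Tak-1 libraries (log2 -0.89 ± 0.17, adjusted p = 0.00363).

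Cytochrome P450 enzymes oxidise hormones and specialised metabolites. Outside the CYP74 and CYP94 families 11 of 84 were lower (13.1%, against 4.56% of all tested genes) and 1 was higher (1.19%, against 2.1%), with a median of -0.072. With 1 library left out, 6 to 12 were lower and 0 to 2 higher. MpCYP815A1 (Mp1g15990) had 5.74, 4.75 and 5.003 CPM in the Mpcoi1 libraries, against 13.4, 19.98 and 11.6 CPM in the Tak-1 libraries (log2 -1.34 ± 0.16, adjusted p = 4.61e-05). Mock Mpdes6fad5 lay between them at 8.57, 8.34 and 9.61 CPM. MpCYP829F4 (Mp5g21950) had 12.8, 10.7 and 10.2 CPM in the Mpcoi1 libraries, against 30.0, 25.4 and 30.0 CPM in the Tak-1 libraries (log2 -1.27 ± 0.19, adjusted p = 4.92e-04). MpCYP707A (Mp2g25940), of the family that breaks down abscisic acid in flowering plants, had 2.42, 1.02 and 2.38 CPM in the Mpcoi1 libraries, against 5.84, 6.14 and 7.39 CPM in the Tak-1 libraries (log2 -1.38 ± 0.18, adjusted p = 1.02e-04). MpCYP813B1 (Mp3g22470) came close to 0 in Mpcoi1, with 0.0756, 0.244 and 0.125 CPM in the Mpcoi1 libraries, against 2.17, 1.60 and 3.01 CPM in the Tak-1 libraries (log2 -1.49 ± 0.20, adjusted p = 1.04e-04).

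Of 25 terpenoid enzymes 3 were lower (12%, against 4.56% of all tested genes) and 2 higher (8%, against 2.1%), and with 1 library left out 2 were lower and 1 to 2 higher. MpKOL3 (Mp2g01940), named for ent-kaurene oxidase of diterpene synthesis, had 6.20, 6.70 and 6.34 CPM in the Mpcoi1 libraries, against 35.5, 29.8 and 33.8 CPM in the Tak-1 libraries (log2 -2.20 ± 0.22, adjusted p = 5.92e-06), 19.4% of the Tak-1 mean and with almost no spread inside Mpcoi1. Mock Mpdes6fad5 had 6.91, 5.45 and 6.31 CPM, level with Mpcoi1. MpMTPSL-like (Mp5g18940), of the microbial-type terpene synthases, had 21.4, 24.2 and 19.1 CPM in the Mpcoi1 libraries, against 37.3, 36.3 and 42.3 CPM in the Tak-1 libraries (log2 -0.82 ± 0.16, adjusted p = 0.00363). Mock Mpdes6fad5 stayed at 44.0, 36.7 and 38.3 CPM. MpMTPSL22 (Mp6g11710) had 0.982, 1.46 and 0.750 CPM in Mpcoi1 and no read in any Tak-1 library (log2 1.03 ± 0.17, adjusted p = 0.00111, a difference that depends on the constant of 1 CPM). Mock Mpdes6fad5 had 0.717, 0.534 and 0.942 CPM, and its difference from Mpcoi1 did not pass (log2 0.25 ± 0.17, adjusted p = 0.296).

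Calls among transporters went in both directions, and the genes named here are those with the largest differences, which were lower. MpAMT2.4 (Mp8g18510), an ammonium transporter, had 1.78, 1.42 and 1.17 CPM in the Mpcoi1 libraries, against 12.2, 13.4 and 11.95 CPM in the Tak-1 libraries (log2 -2.47 ± 0.21, adjusted p = 5.30e-07), 11.6% of the Tak-1 mean. Mock Mpdes6fad5 lay between, at 8.57, 5.63 and 4.38 CPM, and Mpcoi1 was lower than it by -1.52 ± 0.21 (adjusted p = 2.09e-05). The NPF family carries nitrate, peptides and plant hormones. MpNPF23 (Mp5g04940) had 9.75, 8.69 and 9.71 CPM in the Mpcoi1 libraries, against 18.6, 20.3 and 20.6 CPM in the Tak-1 libraries (log2 -1.005 ± 0.14, adjusted p = 1.96e-04). MpNPF26 (Mp5g09280) had 6.42, 7.43 and 6.003 CPM in the Mpcoi1 libraries, against 13.8, 14.4 and 12.5 CPM in the Tak-1 libraries (log2 -0.94 ± 0.14, adjusted p = 3.63e-04). They differed in the double mutant: mock Mpdes6fad5 had 11.9, 7.62 and 7.82 CPM for MpNPF23, near Mpcoi1, and 12.9, 14.4 and 11.4 CPM for MpNPF26, near Tak-1. MpPIN4 (Mp5g05150), an auxin exporter by its name, had 44.1, 39.7 and 34.2 CPM in the Mpcoi1 libraries, against 57.6, 56.1 and 60.2 CPM in the Tak-1 libraries (log2 -0.55 ± 0.11, adjusted p = 0.00362). Mock Mpdes6fad5 had 64.4, 59.3 and 59.3 CPM. MpPIN4 was counted with the auxin genes and not with the transporters. Of 29 tested auxin genes 2 were lower (6.90%, against 4.56% of all tested genes) and 1 higher (3.45%, against 2.1%). Over 143 tested transporter genes 8 were lower (5.59%) and 5 higher (3.50%), close to the 4.56% and 2.1% of all tested genes, and 5 to 7 and 1 to 6 with 1 library left out.

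Calls were few in the next groups, whose shares stand against 4.56% lower and 2.1% higher over all tested genes. Of 66 genes of abscisic acid and desiccation tolerance 5 were lower (7.58%) and 2 higher (3.03%), and 1 to 7 and 1 without a library. MpABI3A (Mp5g08310), named for the abscisic acid transcription factor ABI3, had 46.9, 50.6 and 48.2 CPM in the Mpcoi1 libraries, against 30.1, 36.3 and 28.8 CPM in the Tak-1 libraries (log2 0.61 ± 0.11, adjusted p = 0.00192). Mock Mpdes6fad5 was far above both at 112, 92.1 and 90.9 CPM. MpLEA-like13 (Mp3g06270), a late embryogenesis abundant gene, had 73.9, 65.5 and 71.9 CPM in the Mpcoi1 libraries, against 107, 98.8 and 114 CPM in the Tak-1 libraries (log2 -0.59 ± 0.09, adjusted p = 7.03e-04). Among signalling kinases and phosphatases, 4 of 49 were lower (8.16%) and 2 higher (4.08%), and 2 to 5 and 0 to 3 without a library. MpPP2C_F1 (Mp3g18710) had 76.1, 64.0 and 75.8 CPM in the Mpcoi1 libraries, against 114, 91.1 and 104 CPM in the Tak-1 libraries (log2 -0.51 ± 0.08, adjusted p = 8.77e-04). MpMAPKKK9 (Mp4g07790) had 194, 166 and 192 CPM in the Mpcoi1 libraries, against 250.4, 228 and 233 CPM in the Tak-1 libraries (log2 -0.37 ± 0.07, adjusted p = 0.00354). In the antioxidant group 4 of 54 were lower (7.41%) and none higher with limma, with 1 to 9 and 0 to 1 without a library, up to 3 higher in the other settings and 6 higher at an unadjusted p under 0.05. MpMDHAR3 (Mp7g06510), a monodehydroascorbate reductase that recycles ascorbate, had 40.01, 37.6 and 39.5 CPM in the Mpcoi1 libraries, against 62.1, 61.4 and 65.3 CPM in the Tak-1 libraries (log2 -0.67 ± 0.08, adjusted p = 5.79e-05). MpPR1l (Mp4g16750), a relative of the pathogenesis-related protein PR1, had 0.416, 0.162 and 0.375 CPM in the Mpcoi1 libraries, against 1.71, 2.21 and 2.04 CPM in the Tak-1 libraries (log2 -1.18 ± 0.21, adjusted p = 0.00248), one of 5 lower genes among 83 defence genes (6.02%). None of these was higher with limma, with 3 to 7 lower and 0 to 1 higher without a library, 1 higher with voom and 6 higher at an unadjusted p under 0.05. That unadjusted threshold was reached by 2944 of all 13220 tested genes, both directions together.

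Class III peroxidases, secreted haem enzymes that build and loosen the wall with hydrogen peroxide, were the family with the most calls, and in both directions. Of 121 tested, 16 were higher (13.2%, against 2.1% of all tested genes) and 18 lower (14.9%, against 4.56%), with a median of -0.035. With 1 library left out, 10 to 13 were higher and 10 to 21 lower. Of the rises named here, 3 were in neighbouring genes. MpPOD28 (Mp3g15790) had 16.7, 13.8 and 17.6 CPM in the Mpcoi1 libraries, against 4.14, 2.21 and 3.497 CPM in the Tak-1 libraries (log2 2.01 ± 0.17, adjusted p = 5.30e-07). MpPOD29 (Mp3g15800) had 8.35, 6.01 and 7.71 CPM in the Mpcoi1 libraries, against 0.776, 1.68 and 0.752 CPM in the Tak-1 libraries (log2 2.03 ± 0.25, adjusted p = 6.04e-05). MpPOD27 (Mp3g15780) had 7.67, 6.82 and 7.88 CPM in the Mpcoi1 libraries, against 2.74, 1.97 and 1.86 CPM in the Tak-1 libraries (log2 1.42 ± 0.22, adjusted p = 6.35e-04). MpPOD70 (Mp5g04010), elsewhere in the genome, had 7.18, 8.77 and 9.80 CPM in the Mpcoi1 libraries, against 1.45, 0.963 and 1.90 CPM in the Tak-1 libraries (log2 1.98 ± 0.19, adjusted p = 3.86e-06). MpPOD125 (Mp5g17470) had 5.40, 6.34 and 4.54 CPM in the Mpcoi1 libraries, against 1.29, 1.64 and 1.505 CPM in the Tak-1 libraries (log2 1.37 ± 0.18, adjusted p = 9.98e-05). No Tak-1 library of these 5 genes reached the lowest Mpcoi1 library. In mock Mpdes6fad5 they stood above Tak-1 too, with 9.51, 11.3 and 10.5 CPM for MpPOD28 and 10.6, 7.91 and 7.72 CPM for MpPOD125. The largest fall was that of MpPOD18 (Mp2g20950), with 0.604, 1.54 and 0.667 CPM in the Mpcoi1 libraries, against 6.67, 5.66 and 5.49 CPM in the Tak-1 libraries (log2 -1.87 ± 0.18, adjusted p = 3.64e-06). Mock Mpdes6fad5 lay between at 4.04, 2.28 and 2.83 CPM. MpPOD59 (Mp5g01710) had 7.56, 7.80 and 6.46 CPM in the Mpcoi1 libraries, against 17.5, 13.4 and 17.3 CPM in the Tak-1 libraries (log2 -1.04 ± 0.18, adjusted p = 0.00151), whereas mock Mpdes6fad5 had 27.98, 20.8 and 17.1 CPM.

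Of 73 cell wall enzymes 4 were higher (5.48%, against 2.1% of all tested genes) and 4 lower (5.48%, against 4.56%). Without a library 3 to 5 were higher and 2 to 6 lower, and in the other settings 4 to 7 and 0 to 7. GH16 enzymes cut and rejoin xyloglucan, a wall polysaccharide. MpGH16.16 (Mp3g10390) had 29.4, 37.7 and 36.0 CPM in the Mpcoi1 libraries, against 10.5, 9.71 and 7.92 CPM in the Tak-1 libraries (log2 1.77 ± 0.27, adjusted p = 4.30e-04), and its neighbour MpGH16.17 (Mp3g10400) had 15.2, 20.6 and 16.6 CPM in the Mpcoi1 libraries, against 5.38, 6.74 and 2.79 CPM in the Tak-1 libraries (log2 1.68 ± 0.30, adjusted p = 0.00209). MpExpansin25 (Mp3g10160), of the wall-loosening expansins, was lower, with 1.93, 1.503 and 1.75 CPM in the Mpcoi1 libraries, against 8.02, 6.46 and 6.55 CPM in the Tak-1 libraries (log2 -1.55 ± 0.12, adjusted p = 3.26e-07). Mock Mpdes6fad5 resembled Mpcoi1 in these, at 28.7, 26.9 and 25.4 CPM for MpGH16.16 and 1.55, 1.25 and 1.27 CPM for MpExpansin25. Among cupins, proteins of a common barrel fold with many functions, 5 of 43 were lower (11.6%, against 4.56% of all tested genes) and 3 higher (6.98%, against 2.1%). Without a library 2 to 7 were lower and 1 to 3 higher, and in the other settings 3 to 9 and 1 to 8. MpCupin3 (Mp1g18470) had 2.34, 2.15 and 3.502 CPM in the Mpcoi1 libraries, against 11.4, 11.8 and 11.2 CPM in the Tak-1 libraries (log2 -1.78 ± 0.23, adjusted p = 9.98e-05). MpCupin65 (Mp5g00880) had 3.17, 2.88 and 2.63 CPM in the Mpcoi1 libraries, against 0.931, 0.441 and 1.02 CPM in the Tak-1 libraries (log2 1.13 ± 0.21, adjusted p = 0.00301).

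**Figure D3:**
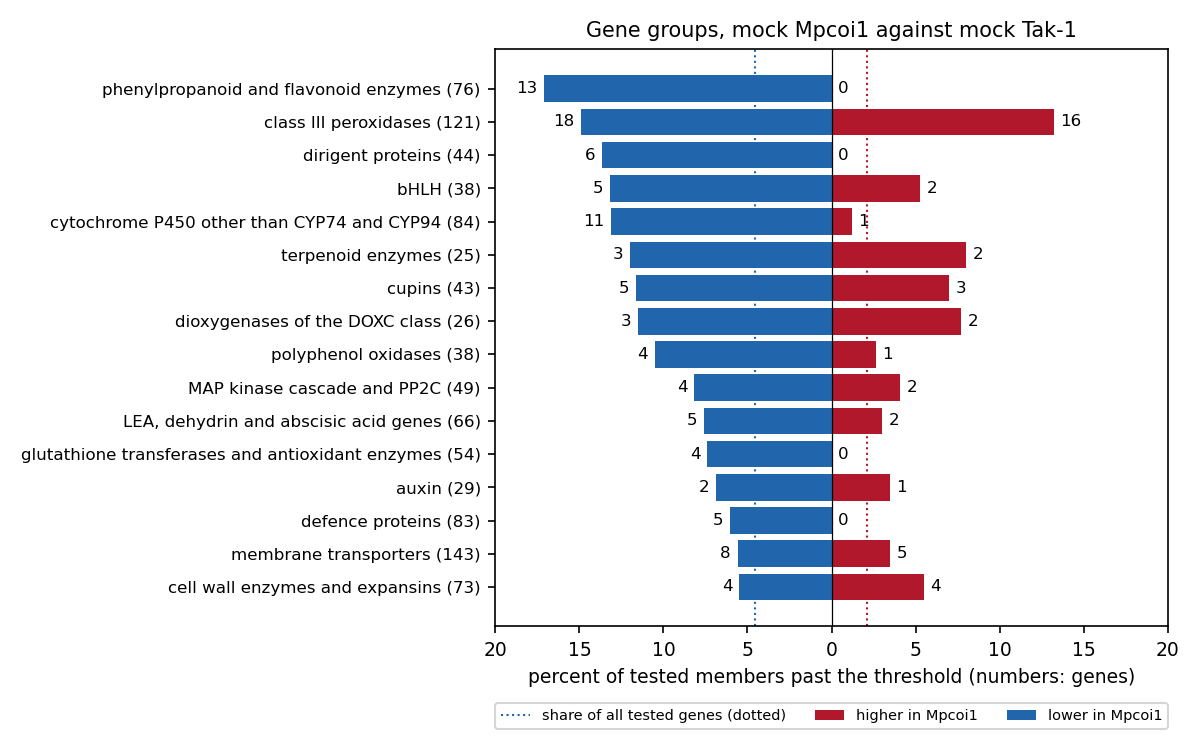
Share of tested members called lower (left, blue) or higher (right, red) in mock Mpcoi1 for gene groups with at least 25 tested members and 3 calls, with the number of genes at each bar and the tested total in brackets. The dotted lines stand at 4.56% and 2.1%, the shares of all tested genes. Most of the groups drawn pass both, class III peroxidases among them, while phenylpropanoid and flavonoid enzymes have 13 lower and 0 higher.

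The genes with the most extreme differences mostly carried no symbol, like most tested genes (2516 of 13220 had one). No role is given here to those without a symbol. Mp5g10170 had 0.416, 0.406 and 0.5003 CPM in the Mpcoi1 libraries, against 45.9, 39.0 and 35.2 CPM in the Tak-1 libraries (log2 -4.82 ± 0.22, adjusted p = 1.48e-10), 1.101% of the Tak-1 mean. Mp1g03240 had no read in any Mpcoi1 library, against 11.2, 9.35 and 10.3 CPM in Tak-1, at least 258-fold lower when 3 reads over the 3 libraries are taken as the limit of a count of 0 (adjusted p = 3.82e-10). Mp4g05940 had 0.416, 0.487 and 0.0417 CPM in the Mpcoi1 libraries, against 12.5, 12.3 and 16.15 CPM in the Tak-1 libraries (log2 -3.48 ± 0.24, adjusted p = 5.56e-08). All 3 were near 0 in mock Mpdes6fad5 too, with 0.415, 1.18 and 0.424, 0.0378, 0.107 and 0 and 0.717, 0.499 and 0.283 CPM. In the opposite direction Mp2g08490 had 14.9, 17.1 and 18.1 CPM in the Mpcoi1 libraries, against 1.19, 1.97 and 1.77 CPM in the Tak-1 libraries (log2 2.75 ± 0.29, adjusted p = 8.92e-06), and its neighbour Mp2g08500 had 9.18, 11.01 and 9.01 CPM in the Mpcoi1 libraries, against 0.672, 1.04 and 0.487 CPM in the Tak-1 libraries (log2 2.64 ± 0.28, adjusted p = 1.29e-05). Mp2g14520 had 59.8, 76.8 and 71.1 CPM in the Mpcoi1 libraries, against 13.9, 19.7 and 12.2 CPM in the Tak-1 libraries (log2 2.13 ± 0.33, adjusted p = 5.03e-04). For these 3 the Mpcoi1 level was above that of mock Mpdes6fad5, which had 3.78, 5.59 and 7.77 CPM for Mp2g08490 and 24.1, 29.9 and 33.3 CPM for Mp2g14520, by 1.44 ± 0.29, 1.36 ± 0.28 and 1.23 ± 0.33 (adjusted p = 8.43e-04, 0.00119 and 0.00738).

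Calls of the same direction were often next to each other in the genome. Of the 603 lower genes 136 (22.6%) had a lower gene next to them among the tested genes, in identifier order, against 8.04% of the tested genes that were not lower. Of the 278 higher genes 44 (15.8%) had a higher neighbour, against 3.87% of the others. With any 1 library left out the shares were 17.1% to 22.7% for lower and 17.5% to 24.5% for higher genes. In the other settings they were 16.9% to 26.0% and 9.38% to 20.1%, the 9.38% (against 4.04% of the others) among genes with a mean of at least 5 CPM. Runs of at least 3 numbered 7 for lower genes, with 30 genes, and 5 for higher genes, with 16 genes. These counts moved with single libraries, to 3, 3 and 3 lower and 4, 2 and 2 higher runs without Mpcoi1 replicates 1, 2 and 3, and to 3, 9 and 4 lower and 4, 9 and 2 higher runs without Tak-1 replicates 1, 2 and 3. Besides the polyphenol oxidase, peroxidase and GH16 neighbours above, a higher run held Mp6g11890, with 14.7, 20.1 and 17.8 CPM in Mpcoi1 and 4.40, 4.41 and 2.92 CPM in Tak-1 (log2 1.92 ± 0.24, adjusted p = 6.15e-05), and a lower one held Mp2g20600, with 2.002, 2.84 and 2.42 CPM in Mpcoi1 and 14.2, 10.99 and 12.4 CPM in Tak-1 (log2 -1.99 ± 0.23, adjusted p = 3.30e-05). Neighbours that are near-identical copies may share reads, and their part in these runs was not tested.

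The longest run was of 10 consecutive tested genes on chromosome 3, from Mp3g09150 to Mp3g09240, all lower in Mpcoi1. The differences ran from -0.78 to -3.39. MpNBS-LRR5 (Mp3g09150), an intracellular immune receptor by its name, opened the run with 12.1, 12.3 and 9.63 CPM in the Mpcoi1 libraries, against 20.8, 20.02 and 19.6 CPM in the Tak-1 libraries (log2 -0.78 ± 0.16, adjusted p = 0.00557). MpNBS-LRR6 (Mp3g09200), of the same class, had 0.0378, 0.162 and 0.167 CPM in the Mpcoi1 libraries, against 1.60, 1.93 and 1.37 CPM in the Tak-1 libraries (log2 -1.23 ± 0.13, adjusted p = 8.41e-06). Mp3g09220 had 0.491, 0.853 and 0.375 CPM in the Mpcoi1 libraries, against 14.997, 15.6 and 15.6 CPM in the Tak-1 libraries (log2 -3.39 ± 0.15, adjusted p = 1.48e-10), and Mp3g09190 had 0.718, 0.366 and 0.375 CPM in the Mpcoi1 libraries, against 5.79, 6.50 and 8.19 CPM in the Tak-1 libraries (log2 -2.39 ± 0.18, adjusted p = 1.38e-07). Mp3g09230 had no read in Mpcoi1 and 1.03, 1.85 and 1.73 CPM in Tak-1, at least 38.4-fold lower by the same limit. MpNPF9 (Mp3g09240), a transporter of the NPF family, closed the run with 2.87, 2.52 and 3.09 CPM in the Mpcoi1 libraries, against 16.3, 13.2 and 15.2 CPM in the Tak-1 libraries (log2 -2.05 ± 0.18, adjusted p = 9.97e-07). The genes at both ends did not pass: Mp3g09140 had 96.5, 102 and 95.3 CPM in Mpcoi1 and 89.9, 101 and 88.9 CPM in Tak-1 (log2 0.07 ± 0.08, adjusted p = 0.632) and Mp3g09250 had 0.264, 0.366 and 0.459 CPM in Mpcoi1 and 0.931, 0.802 and 0.885 CPM in Tak-1 (log2 -0.46 ± 0.17, adjusted p = 0.123). Mock Mpdes6fad5 did not share the fall, with differences from mock Tak-1 of 0.04 to 1.89 over the 10 genes, and 9.06, 8.69 and 8.52 CPM for MpNBS-LRR6. Against mock Mpdes6fad5, where 15.8% of all tested genes were lower in mock Mpcoi1, each of the 10 was lower, by -0.82 to -3.91 (largest adjusted p = 6.27e-04). The 10 calls against Tak-1 held in every setting that kept the genes in the test. The end of the run at Mp3g09250 depended on the setting, with a lowest adjusted p of 0.0203 for that gene over the limma and voom fits. The longest lower run had 11 genes with a constant of 0.1 CPM, with the deposited values and with the compared groups alone.

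**Figure D4:**
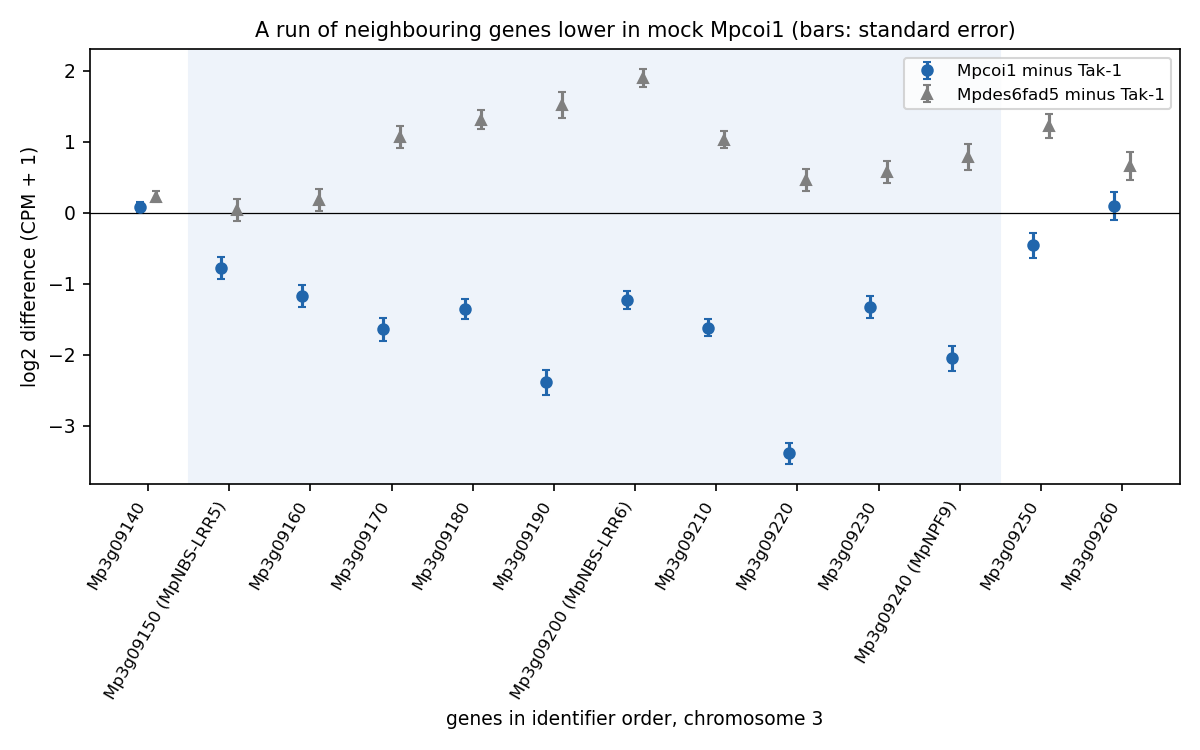
Log2 differences with standard errors for 13 genes in identifier order on chromosome 3, for mock Mpcoi1 minus mock Tak-1 (circles) and mock Mpdes6fad5 minus mock Tak-1 (triangles), which share the Tak-1 libraries. The shaded 10 genes lie below 0 in Mpcoi1, down to -3.39, and at or above 0 in Mpdes6fad5.

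The wounded libraries of the same genotypes gave a second reading. They do not enter the mock means, but they were fitted in the same model and share its estimate of each gene's spread. Of the 603 genes lower in mock Mpcoi1, 350 (58.0%) were also lower in wounded Mpcoi1 than in wounded Tak-1, 21.1% of the 1662 lower there, where 12.6% of all tested genes were lower; 15 were higher. Of the 278 higher genes 138 (49.6%) were higher in wounded plants too, 10.2% of the 1352 higher there (10.2% of all tested genes), and 15 were lower. Among genes at least 2-fold apart in mock plants, 89 of 104 lower ones and 32 of 32 higher ones were called the same way after wounding. The shared numbers were 201 to 389 lower and 65 to 178 higher genes with 1 mock library left out: lower and higher, they were 201 and 65 without Mpcoi1 replicate 2, and 389 and 178 without Tak-1 replicate 2. With each pair of groups fitted alone, so that no spread was shared, 83 of 467 higher genes (17.8%) were higher in wounded plants too, where 3.37% of all tested genes were. In that fit 281 of 804 lower genes (35.0%) were lower in both, where 7.75% of all tested genes were lower in wounded plants. MpCOI1 differed by -1.499 ± 0.08 in wounded plants, Mp5g10170 by -4.06 ± 0.22, and MpKOL3 by -2.79 ± 0.22. MpGH16.16 differed by 2.08 ± 0.27 and MpPOD28 by 1.41 ± 0.17.

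For MpJAZ, MpLOX4 and the cytochrome P450 gene MpCYP815A1 the wounded difference was the larger of the 2; over all tested genes 5.17% had a change of the difference (wounded minus mock) that was negative and 2.4% one that was positive. MpJAZ differed by -2.71 ± 0.09 after wounding, with 25.8 ± 1.40 CPM in Mpcoi1 and 174 ± 18.7 CPM in Tak-1 (SD, n = 3 each), and the change of the difference was -2.07 ± 0.13 (adjusted p = 1.79e-09). MpLOX4 reached -6.02 ± 0.23 (change of the difference -4.44 ± 0.33, adjusted p = 2.74e-08), and MpCYP815A1 -7.32 ± 0.16 (change -5.98 ± 0.23, adjusted p = 3.37e-12). The reverse held for MpPPO38, whose difference shrank to -2.32 ± 0.16 (change 1.56 ± 0.23, adjusted p = 1.48e-04), and for MpPOD18, where wounded plants did not differ (log2 0.03 ± 0.18, adjusted p = 0.938; change 1.90 ± 0.25, adjusted p = 4.44e-05). MpPOD18 had 14.8 ± 2.63 CPM in wounded Mpcoi1 and 14.4 ± 1.098 CPM in wounded Tak-1 (SD, n = 3 each).

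**Figure D5:**
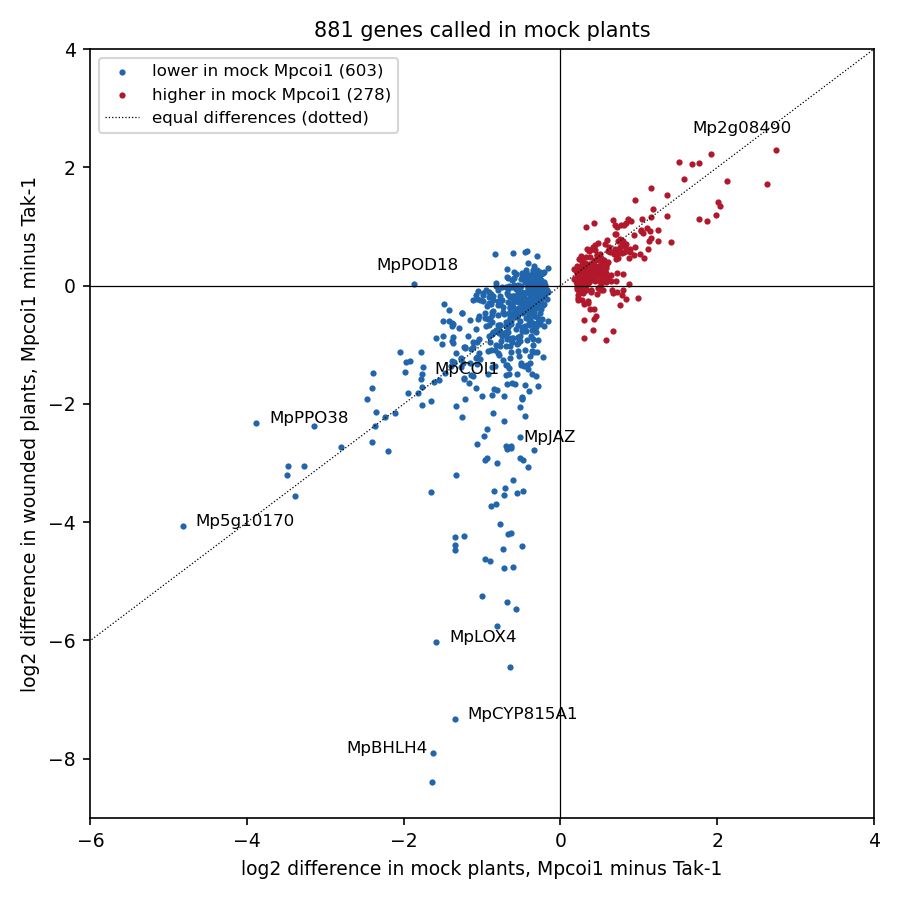
Log2 difference of Mpcoi1 minus Tak-1 in mock plants against that in wounded plants for the 881 genes called in mock plants, with a dotted line where both are equal. Of the genes at least 2-fold apart in mock plants, 103 of 104 lower and 32 of 32 higher ones kept their sign in wounded plants. MpPPO38 and MpPOD18 lie above the line. A column of genes below it, with MpLOX4, MpCYP815A1 and MpJAZ, is much further apart after wounding.

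The wound response of Mpdes6fad5, in plants that carry the receptor, is a difference between other libraries than those of the mock comparison, though all were fitted in the same model. Of the 603 genes lower in mock Mpcoi1, 248 (41.1%) rose after wounding in Mpdes6fad5 and 138 (22.9%) fell, where 28.1% of all tested genes rose and 28.9% fell. Of the 278 higher genes 66 (23.7%) rose and 88 (31.7%) fell. Of the 32 genes higher by at least 2-fold none rose with limma, also at an unadjusted p under 0.05, and 15 (46.9%) fell. With each pair of groups fitted alone, 321 of 804 lower genes (39.9%) rose, where 29.8% of all tested genes rose. The number of lower genes that rose was 119 without Mpcoi1 replicate 2, 132 without replicate 3, and 147 and 148 without Tak-1 replicates 1 and 3. MpBHLH3 rose by 2.99 ± 0.22, MpJAZ by 2.61 ± 0.09, MpPKS/CHS20 by 2.60 ± 0.18 and MpCYP707A by 3.65 ± 0.18. MpGH16.16 was lower after wounding, at -1.76 ± 0.27, and so was MpPOD70, at -1.56 ± 0.19. MpKOL3 (0.00 ± 0.22) and MpPPO38 (-0.04 ± 0.16), both low in mock Mpcoi1, stayed near 0 in that response.

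Marker genes of tissue parts were read in both groups, since in whole-tissue RNA fewer cells of a type and less RNA per cell cannot be told apart. MpGCAM1 (Mp6g04830), a MYB gene of gemma cups, which the sampling left out, had no read in Mpcoi1, 0, 0.143 and 0 CPM in Mpdes6fad5 and 0.517, 1.40 and 0.708 CPM in Tak-1, and its adjusted p of 0.022 rose to 0.0532 to 0.0758 without 1 library, other than Tak-1 replicate 1. MpKAR (Mp5g06550), which acts in gemma initiation, had 31.1, 33.6 and 30.9 CPM in Mpcoi1 and 29.2, 31.9 and 29.7 CPM in Tak-1 (log2 0.07 ± 0.07, adjusted p = 0.614). MpRBCS (Mp4g09890), the small subunit of the carbon-fixing enzyme, had 225, 271 and 238 CPM in Mpcoi1 and 167, 164 and 174 CPM in Tak-1, separate in its libraries but short of the threshold (log2 0.53 ± 0.20, adjusted p = 0.113). The part of gemma cup tissue in the differences above was not tested.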

How the data were processed

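RNA of pooled plants was sequenced, and per the submitters' processing notes the authors used Trim Galore, HISAT2, HTSeq and edgeR, without versions. Genome build, strand and the treatment of reads that match several genes are unstated in these sources. The deposited table holds log2 CPM values with a small prior count, 1 column per library, 18 in all; every column was matched to a sample by its name. CPM was 2 to the power of each value minus the shared floor. Values were whole multiples of 1 read in each library (within 0.01 for all values up to 1000 reads), so library totals are known.

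Genes with CPM of at least 1 in at least 3 libraries (13220 of 20574) were tested in limma 3.58.1 (R 4.3.3) on the scale log2(CPM + 1): a model of 6 group means over all 18 libraries, eBayes with trend, Benjamini-Hochberg adjustment over all 13220 genes, threshold 0.05. The constant of 1 CPM makes differences of weak genes smaller than their ratios. Limits cover counting error only; a count of 0 allows up to 3 reads at 95% confidence. The fit was also run on simulated counts with the same spread setting for every gene and changes of at least 2-fold. That run does not test how smaller differences, or an outlying library, are handled. Python 3.11.15, pandas 2.3.3, numpy 2.4.6 and matplotlib 3.10.9 did the rest.

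Symbols came from RefSeq's table of the MpTak2_v7.1 assembly (12752 of the tested identifiers matched, 2516 with a symbol), used for names and order alone. Gene groups are patterns on symbols. The comparison, the members and the groups were chosen with earlier results of these data known. Genes named were taken from those called with groups that did not overlap. They are the 12 largest falls and 12 largest rises with a symbol, the 4 largest each way of all, and up to 4 from each of 38 groups. Jasmonate pathway genes with a matching symbol were added, called or not. No symbol matched MYC or allene oxide cyclase, so these were not read by name. The text cites a part of the genes named. Genes of the runs of neighbours, the neighbours of MpCOI1, MpBHLH2, MpBHLH51, MpDES6 and MpFAD5 were added after their values were seen. Comparisons with mock Mpdes6fad5 share libraries with the main one and are given side by side only.

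The results were recomputed with added constants of 5 and 0.1 CPM, with another filter (mean of 5 CPM or more) or none, with library-total, quantile and median-of-ratios scaling, with robust eBayes, with voom on the recovered reads, on the deposited values themselves, on the compared groups only, with a replicate block, and without each of the 6 libraries in turn.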

Additional observations from a re-analysis of the deposited data

Results flagged for a closer look

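For 26 of the 96 called genes named by the rule, the difference between Mpcoi1 and Tak-1 was not the same in wounded as in mock plants, by a test of the change itself (wounded difference minus mock difference, limma, adjusted p under 0.05). Over all tested genes 684 (5.17%) had a negative change and 317 (2.4%) a positive one. The mock libraries enter this change. In 17 of the 26 the change was negative and in 9 it was positive. It was strongest for MpBHLH4 (-6.277), MpCYP815A1 (-5.981), MpDIR39 (-5.795), MpLOX4 (-4.441) and MpGH3A (-3.911), in log2 units. MpBHLH3 (-3.044), MpDIR18 (-2.836), MpDOXC16 (-2.707), MpCYP74N2 (-2.445), MpJAZ (-2.07) and MpLOX2 (-2.015) followed, and smaller changes were those of MpPKS/CHS17 (-1.837), MpERF15 (-1.603), MpNPF26 (-1.481), MpNPF23 (-0.8602), MpDOXC22 (-0.7796) and Mp1R-MYB7 (-0.378).

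The positive changes were those of MpPOD18 (1.895), MpPPO38 (1.561), MpCYP813B1 (1.171), MpPPO39 (1.014), MpLEA-like4 (1.011), MpNPF9 (0.9314), MpMTPSL-like (0.8081), MpMDHAR3 (0.5204) and MpMAPKKK9 (0.3594), all lower in mock Mpcoi1. For MpPPO39 wounded Mpcoi1 had 0.101 ± 0.0641 CPM and wounded Tak-1 0.473 ± 0.219 CPM (SD, n = 3 each). For MpLEA-like4 the difference was 0.59 ± 0.10 in wounded plants, against -0.42 ± 0.10 in mock plants. Its mock call was lost without any 1 library other than Tak-1 replicate 2 (adjusted p = 0.0598 to 0.104). In all, 9 of the 26 lost their mock call without some library: MpBHLH4, MpDIR39, MpGH3A, MpDOXC16, MpCYP74N2, MpERF15, MpDOXC22, Mp1R-MYB7 and MpLEA-like4.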

How the results depend on the processing

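Leaving out each of the 6 mock libraries in turn gave 363 to 1401 changed genes, 94 to 616 higher and 269 to 785 lower, 201 to 389 shared lower and 65 to 178 shared higher with wounded plants, 119 to 300 lower genes that rose after wounding in Mpdes6fad5, and 23.4% to 44.0% of calls higher, against 31.6% in the main analysis. The 2-fold counts depend on the constant: 58 higher and 169 lower with 0.1 CPM, 12 and 35 with 5 CPM, 58 and 170 with the deposited values, 51 higher with voom, and 15 and 62 at a mean of at least 5 CPM, where fewer genes were tested. A fit of the compared groups alone called 467 higher, and 83 genes were higher in mock and wounded plants, where library totals gave 208; the cause was not tested. Library totals moved the share of calls that were higher to 41.2%, so the excess of lower genes is smaller there, and the median of all tested genes to 0.0305. Of 167 genes followed by name, none of the 128 that were called changed direction in any setting, and 77 of these calls held in all of them; 8 of the 39 not called changed sign, MpTPL, MpBHLH2 and MpBHLH51 among them. The replicate block gave 911 calls. The replicate numbers pair nothing by the labels. Same-numbered mock Mpcoi1 and Tak-1 libraries correlated at 0.108, 0.0879 and 0.0611, each best with its own number. Against mock Mpdes6fad5 the values were 0.0958, 0.0218 and 0.046 for Mpcoi1, where replicate 2 was not best with its own number. For Tak-1 they were 0.107, 0.028 and 0.00341, where replicates 2 and 3 were not. List medians moved by over 1 SD in 35 of 540 checks. Low genes near 1 CPM are limited by depth.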
